A study of Mus musculus with 15 samples.

Results

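The regions described here are 469 clusters of Mbnl3 HITS-CLIP tags from wild-type (WT) mouse forelimb that had no counterpart cluster in C2C12 cells and still held tags in forelimbs of the Mbnl3 ΔE2 genotype. HITS-CLIP crosslinks RNA to protein with ultraviolet light, precipitates the protein with an antibody and sequences the attached RNA as short tags. Tags of the 3 WT libraries that overlapped on a strand were merged, and the 1379 clusters with at least 10 tags and at least 1 tag from each library were kept. Of these, 466 overlapped a C2C12 cluster of at least 10 tags and were set aside. A forelimb-only cluster became a member when at least 5 ΔE2 tags overlapped it on its strand, which left 469 members (34.0% of 1379) and 444 clusters sparse in ΔE2. The members were thus chosen by their tag numbers in WT, ΔE2 and C2C12, so differences in level between the genotypes are a description of the members and support nothing, the edgeR calls given last included.

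Muscleblind proteins are RNA-binding proteins with zinc fingers that recognise short GC-containing motifs in single-stranded RNA. They regulate alternative splicing in the nucleus and RNA localisation and stability through sites in 3′ untranslated regions. Mbnl3 is the family member expressed in embryonic tissue, placenta and regenerating muscle, and the ΔE2 allele is named for exon 2 of its gene.

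All 3 CLIP groups had 3 replicates labelled as biological: WT BL6 forelimb, BL6 forelimb homozygous for the Mbnl3 delta-E2 allele, and wild-type C2C12 myoblasts grown in 20% serum. Forelimbs were taken at day 15 of gestation, and each replicate pooled forelimbs of several embryos, so no value belongs to 1 animal. The titles of the ΔE2 samples read Mbnl3 KO. The protein behind tags of these forelimbs was not tested. The growth protocol lists female WT mice, while the CLIP labels give no sex. A forelimb holds skin, cartilage, bone, connective tissue, muscle and blood, and fewer cells of a type cannot be told apart from less of an RNA per cell. No gene annotation of the files' mm9 build was used, so the tissue was not checked against marker genes and members are named by position, counted from 1.

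WT libraries 1 to 3 held 35413, 74123 and 124309 tags, and ΔE2 replicate 1 held 67279. ΔE2 replicates 2 and 3 had 33916 molecules in common (same position, strand and barcode), or 83.7% and 57.4% of their tags, and were counted as 1 library of 65730 tags. WT libraries shared molecules too. WT replicate 1 shared 29.8% of its tags with replicate 2 and 31.3% with replicate 3, and replicate 2 shared 32.4% with replicate 3, so the WT libraries are less independent than their number implies. Counting each molecule shared by WT libraries once, an alternative chosen after seeing the data, left 372 members. Molecules were also shared across genotypes and were counted in both. WT replicate 1 and ΔE2 replicate 1 had 3095 in common, or 8.74% and 4.60% of their tags. WT replicate 3 and ΔE2 replicate 3 had 2591, or 2.08% and 4.38%. For comparison, ΔE2 replicates 1 and 2 had 2490, or 3.70% and 6.14%. The combined C2C12 set held 550124 distinct tags. Levels below are in CPM, tags per 1000000 of all tags in the library, with n = 3 WT and n = 2 ΔE2 libraries.

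Members held 18166 WT tags, or 8.48%, 7.77% and 7.56% of the tags of WT libraries 1 to 3. They held 6.75% and 5.30% of the tags of the 2 ΔE2 libraries. Most were small: 229 had 10 to 19 WT tags, 212 had 20 to 99, and 28 had 100 or more. Those 28 carried 40.6% of the members' WT tags. The median member had 20 WT and 9 ΔE2 tags, against 12 and 2 for clusters sparse in ΔE2 and 20 and 7 for clusters shared with C2C12. In 457 of the 469, both ΔE2 libraries gave at least 1 tag. Forelimb-only status rests on C2C12 clusters of at least 10 tags and does not mean that C2C12 tags were absent. C2C12 gave no tag at 163 members (34.8%), and members had a median of 2 C2C12 tags and at most 14.

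The ratio of the ΔE2 mean to the WT mean had a median of 0.764 over members and 0.501 over all 1379 WT clusters, with a member range from 0.137 to 3.67. Both ΔE2 libraries lay below all 3 WT libraries at 120 members, where 45.1% of all WT clusters did so. Both lay above at 40 members, against 5.44% of all WT clusters. The requirement of 5 ΔE2 tags shapes these counts, and nothing is read from them. Just inside it, 64 members had 5 ΔE2 tags, with a median of 15 WT tags and a median ratio of 0.550. Just outside it, 103 forelimb-only clusters had 4 ΔE2 tags, with a median of 13 WT tags and a median ratio of 0.509. Both sets are defined by their number of ΔE2 tags, so the closeness of their ratios follows from the cut and is not a result. Among the smallest members, of 10 to 19 WT tags, the median ratio was 0.924, and among those of 100 or more it was 0.586.

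**Figure D1:**
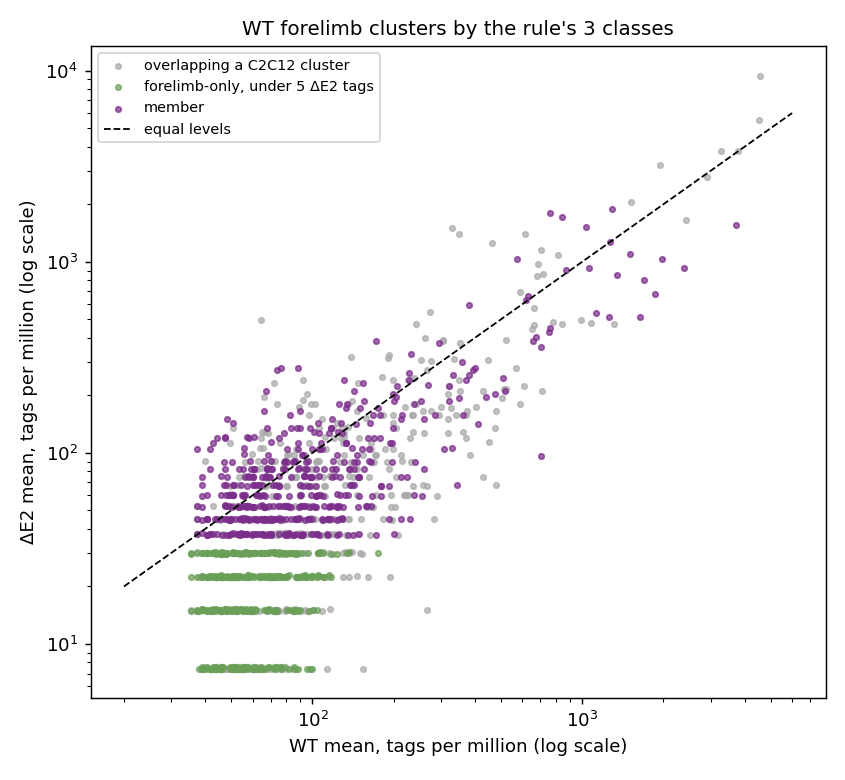
Mean level in WT (x axis) and in ΔE2 forelimb (y axis), in CPM on log scales, for each WT cluster with a ΔE2 tag. Points are coloured by class and the dashed line marks equal levels. Members begin where 5 ΔE2 tags are reached and 149 of 469 have a ratio above 1. The 35 sparse and 10 shared clusters without a ΔE2 tag are not drawn.

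The strongest members were 15 regions of 207 to 755 WT tags each, which together carried 29.4% of the members' WT tags. In 10 of the 15 both ΔE2 libraries lay below all WT libraries, in 1 both lay above, and in 4 the groups overlapped. Over all WT clusters 45.1% lay below and 5.44% above. The ranking used WT tags, so nothing is read from these counts. C2C12 gave no tag at 13 of them, where 0 tags allow up to 5.45 CPM (3 counts, counting error only).

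The member with the most tags was 547 nt wide, on the minus strand at chr7:149844614-149845160. WT gave 189, 226 and 340 tags here and ΔE2 109 and 98, or 3707 ± 1420 CPM across WT (SD, n = 3) and 1556 ± 91.3 across ΔE2 (SD, n = 2). All WT libraries were above both ΔE2 libraries, and the ratio was 0.420. Tags gathered in several humps along it in both genotypes, and the highest lay 33 nt from its 5′ end in WT and 32 nt in ΔE2.

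The member from 94814069 to 94814264 on the plus strand of chromosome 11 had 125, 150 and 200 WT tags and 75 and 49 ΔE2 tags. The ratio was 0.390, and 7 tags came from C2C12. Its WT level was highest in library 1, at 3530 CPM against 2024 and 1609 in the other two. The widest member, 620 nt at chr11:99250054-99250673 (minus strand), had 88, 114 and 238 WT tags and 90 and 48 ΔE2 tags, a ratio of 0.522. At chr12:110698609-110698810 (plus strand), WT libraries had 69, 141 and 216 tags and ΔE2 libraries 58 and 33. That member was steady over the WT libraries, at 1863 ± 111 CPM (SD, n = 3), and 682 ± 255 across ΔE2 (SD, n = 2).

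Levels were not lower everywhere among the strongest members. At chr10:18576304-18576674 (plus strand), tags numbered 45, 93 and 169 in WT and 133 and 119 in ΔE2. This was 1295 ± 56.5 CPM across WT (SD, n = 3) and 1894 ± 118 across ΔE2 (SD, n = 2), a case of higher ΔE2 values throughout. At chr18:33596735-33597020 (minus strand), the groups overlapped at 1267 ± 192 across WT (SD, n = 3) and 1270 ± 53.5 across ΔE2 (SD, n = 2). A pair of neighbours on the plus strand of chromosome 13 differed from each other. The member from 38289827 to 38289997 had 869 ± 71.5 CPM across WT (SD, n = 3) and 908 ± 166 across ΔE2 (SD, n = 2). The next, from 38290101 to 38290266, had 841 ± 57.6 across WT (SD, n = 3) and 1707 ± 3.79 across ΔE2 (SD, n = 2).

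**Figure D2:**
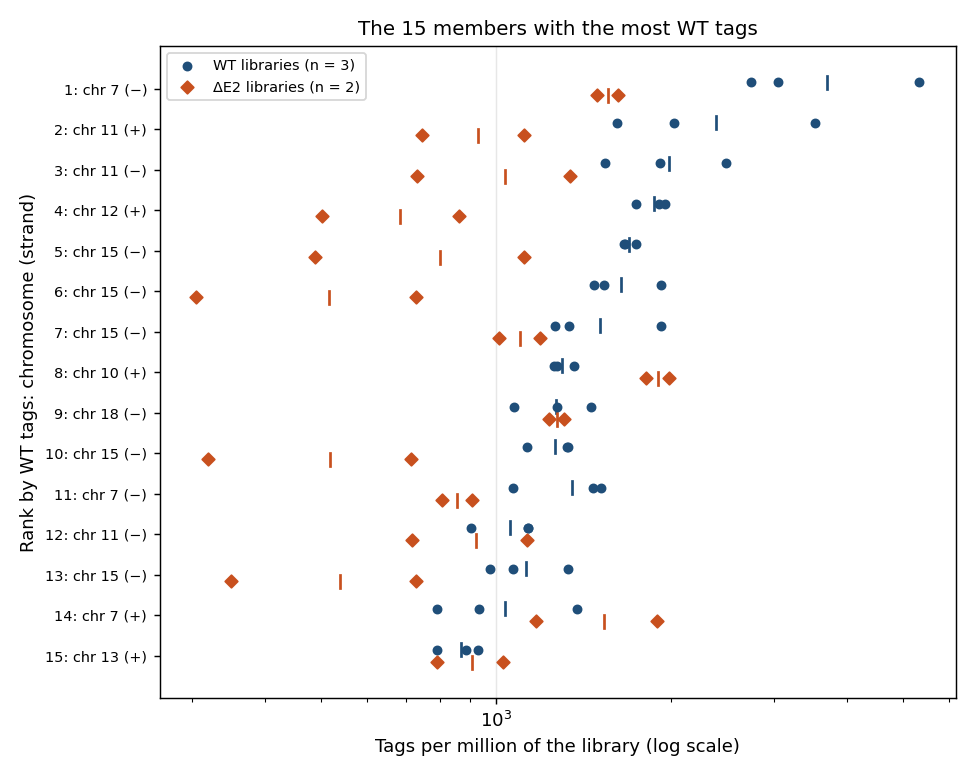
CPM of each library (x axis, log scale) for the 15 members with the most WT tags, ranked from the top and named by chromosome and strand. Circles are the 3 WT libraries, diamonds the 2 ΔE2 libraries, and vertical ticks the means. The chromosome 10 member at rank 8 has both ΔE2 libraries above the WT libraries, and 10 members have both below. Over all WT clusters, 5.44% have both above and 45.1% have both below.

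Among the 133 members with at least 30 WT tags, the 10 lowest ratios ran from 0.137 to 0.265 and the 10 highest from 1.46 to 2.36. The lowest was at chr9:43143209-43143462 (plus strand), with 30, 54 and 67 WT tags and 12 and 1 ΔE2 tags. It qualified as a member almost wholly through ΔE2 replicate 1. Next came chr11:102151933-102152112 (minus strand, 0.188), chr15:79658018-79658122 (minus strand, 0.195) and chr7:148276169-148276359 (plus strand, 0.196). The member from 28233655 to 28233802 on the plus strand of chromosome 8 had 10, 14 and 21 WT tags and 4 and 2 ΔE2 tags, a ratio of 0.211. The others lay on chromosomes 6, 10, 14, 5 and 11. At all 10, both ΔE2 libraries were below the WT libraries, by a choice that favours such members. Of all WT clusters, 45.1% lay below.

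The highest ratio was at chr13:56390060-56390239 (minus strand). WT gave 26, 55 and 100 tags there and ΔE2 109 and 129, or 760 ± 38.5 CPM across WT (SD, n = 3) and 1791 ± 242 across ΔE2 (SD, n = 2). The tags of both genotypes piled up towards its 3′ end, with the highest point 153 nt from the 5′ end in WT and 150 nt in ΔE2. At chr7:149762516-149762584 (minus strand) the ratio was 2.22, with 7, 13 and 18 WT tags and 25 and 26 ΔE2 tags. Further high ratios stood at chr7:29607030-29607123 (plus strand, 1.84) and chr6:135332469-135332656 (plus strand, 1.80). The ratio was 1.57 at chr5:32794377-32794550 (plus strand). In 8 of the 10 the ΔE2 libraries were both above the WT libraries, against 5.44% of all WT clusters, and in 2 the groups overlapped. The choice by ratio favours such members.

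**Figure D3:**
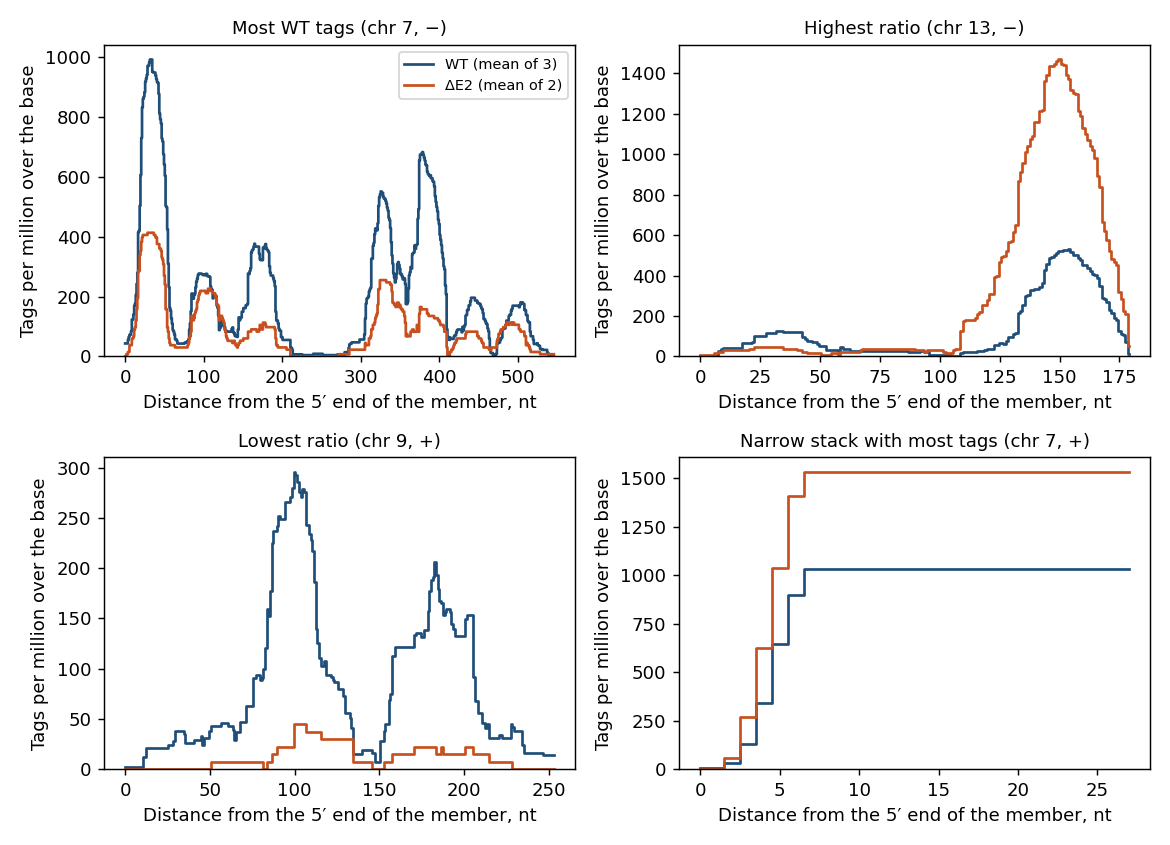
CPM (tags scaled to 1000000 per library) covering each base (y axis) along 4 members, by distance from the member's 5′ end (x axis, nt), as the mean of 3 WT or 2 ΔE2 libraries. Panels show the members with the most WT tags, the highest ratio, the lowest ratio and the most tags among those of at most 40 nt. Peaks in ΔE2 stand at nearly the same places as in WT, at other heights.

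Where the tags stood within a member was not used by the rule beyond overlap. The point of highest coverage in ΔE2 lay at a median of 4 nt from that in WT, and within 5 nt at 254 of the 469 members (54.2%). Clusters shared with C2C12 that also had at least 5 ΔE2 tags gave 172 of 313 (55.0%), a nearly equal share. The points were more than 20 nt apart at 74 members and more than 100 nt apart at 2. One of these lay at chr11:99996866-99997286 (minus strand), with its highest points at 80 nt in WT and 247 nt in ΔE2, where 20 of its 57 ΔE2 tags overlapped. The other was at chr6:29698790-29699103 (plus strand).

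Over libraries, the mean position of tags, from 0 at the 5′ end of a member to 1 at its 3′ end, was 0.513 ± 0.00879 across WT (SD, n = 3) and 0.530 ± 0.00341 across ΔE2 (SD, n = 2). The ΔE2 values exceeded every WT value (exact permutation test, two-sided, p = 0.1, adjusted 0.3 over 3 measures), and 0.1 is the smallest p that this design allows. The difference of 0.0174 was 0.00487 when each member counted equally, with p = 0.2 in the exact permutation test. Tags within members were 30.1 ± 0.429 nt long across WT (SD, n = 3) and 30.8 ± 0.716 nt across ΔE2 (SD, n = 2), with overlapping groups (exact permutation test, two-sided, p = 0.3, adjusted 0.45). Antisense tags were rare, at 0.0129 ± 0.0113 per 100 sense tags across WT (SD, n = 3) and 0.0110 ± 0.0156 across ΔE2 (SD, n = 2); the exact permutation test, two-sided, gave p = 1, adjusted 1. Only 3 of the 469 members had an antisense WT tag. WT library 1 and the combined ΔE2 library had none, so the test on antisense tags could show little.

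Many members lay side by side. Members within 10000 nt of each other on a strand formed 326 stretches, of which 248 held 1 member and 31 held at least 3. These 31 held 127 members and 46.0% of the members' WT tags, and at 19 of them no other WT cluster of either class lay between. Both ΔE2 libraries lay below the WT libraries at 10 stretches and above at 5, and the groups overlapped at 16. Of single WT clusters, 45.1% lay below and 5.44% above, and no stretches of other clusters were formed for comparison. The summed members were chosen on ΔE2 tags, so nothing is read from these counts. Tags, levels and ratios of a stretch, C2C12 tags included, are summed over its members only. At 4 stretches a WT cluster shared with C2C12 lay between the members and was left out of the sums. C2C12 gave no tag at the members of 10 of the 31 stretches. Ratios over a whole stretch ran from 0.382 to 1.66, with a median of 0.758. As background, the mouse genome carries its type II keratin genes together on chromosome 15, its type I keratin genes on chromosome 11, the imprinted neighbours H19 and Igf2 on chromosome 7 and the imprinted Dlk1 domain on chromosome 12. Whether the stretches on these chromosomes belong to those genes was not analysed here.

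Chromosome 15 held 3 stretches on its minus strand, none with a C2C12 tag at its members. The one from 101675855 to 101690336 had 7 members with 212, 409 and 704 WT tags and 232 and 132 ΔE2 tags. Its level was 5723 ± 240 CPM across WT (SD, n = 3) and 2728 ± 1018 across ΔE2 (SD, n = 2). The members within it were not alike. Ratios were 0.315 for the member from 101689208 to 101689454 and 0.410 and 0.474 for the pair at 101675855 and 101676124, but 1.02 from 101680861 to 101681208. The last had 22, 42 and 83 WT tags and 39 and 45 ΔE2 tags, and its groups overlapped. The stretch from 101537524 to 101543158 had 4 members and a ratio of 0.608. That from 101748980 to 101755163 had 3 members, with 2446 ± 534 across WT (SD, n = 3) and 1669 ± 48.8 across ΔE2 (SD, n = 2).

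The minus strand of chromosome 11 held a stretch from 99993095 to 99997286, whose 4 members had no C2C12 tag. It had 80, 206 and 323 WT tags and 146 and 94 ΔE2 tags, a ratio of 0.707. Its plus strand held the 3 members from 94813190 to 94814264, with the lowest ratio of any stretch, 0.382, and member ratios from 0.319 to 0.390. On the minus strand of chromosome 11 further stretches lay from 106124677 to 106125230, with a ratio of 0.654, and from 87794116 to 87794799, with 1.04.

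Stretches on the end of chromosome 7 stood on the same strand and in opposite order. From 149836678 to 149845293, 4 members had 5789 ± 1566 CPM across WT (SD, n = 3) and 2840 ± 251 across ΔE2 (SD, n = 2), and each had a ratio between 0.420 and 0.635. From 149762096 to 149763010, 4 members had 17, 40 and 66 WT tags and 59 and 55 ΔE2 tags. Their level was 517 ± 32.2 across WT (SD, n = 3) and 857 ± 28.4 across ΔE2 (SD, n = 2), the highest ratio of any stretch, with member ratios from 1.21 to 2.22. C2C12 gave 1 tag at the members of the former and 21 at those of the latter. On chromosome 12, the plus strand held 2 stretches whose members had no C2C12 tag. The one from 110784648 to 110787373 had a ratio of 0.451, and the one from 110824099 to 110831008 a ratio of 0.611.

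Besides chromosome 7, both ΔE2 libraries exceeded every WT library at 4 stretches. A run of 7 members at chr10:18575681-18576724 (plus strand) had 1615 ± 86.2 CPM across WT (SD, n = 3) and 2261 ± 207 across ΔE2 (SD, n = 2), with no C2C12 tag. A further 3 members at chr6:135332415-135332858 (plus strand) had a ratio of 1.44, and 3 at chr5:32793810-32794667 (plus strand) a ratio of 1.57. C2C12 gave 27 tags at the former and 17 at the latter. The minus strand of the X chromosome held 6 members from 100662284 to 100663246. These had 20, 51 and 75 WT tags, 61 and 50 ΔE2 tags and 23 C2C12 tags. There the level was 619 ± 63.1 across WT (SD, n = 3) and 834 ± 103 across ΔE2 (SD, n = 2), and all 6 members had ratios above 1, from 1.16 to 1.79.

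The other stretches overlapped between the groups, except 1 at chr10:60891437-60893733 (minus strand), where 7 members had a ratio of 0.607 and 24 C2C12 tags. The stretch with the most members, 8, was at chr10:56108643-56110192 (plus strand). Its members had 31, 75 and 138 WT tags, 61 and 40 ΔE2 tags and 34 C2C12 tags. A WT cluster shared with C2C12 also lay within this stretch and was not counted. At chr6:122677963-122679879 (minus strand), 7 members had near equal levels of 763 ± 52.4 across WT (SD, n = 3) and 796 ± 157 across ΔE2 (SD, n = 2), with no C2C12 tag. The 5 members at chr1:133829125-133831392 (plus strand) had a ratio of 0.729, and the 5 at chr7:129222726-129225450 (plus strand) one of 0.890. C2C12 gave 32 tags at the former and 7 at the latter.

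**Figure D4:**
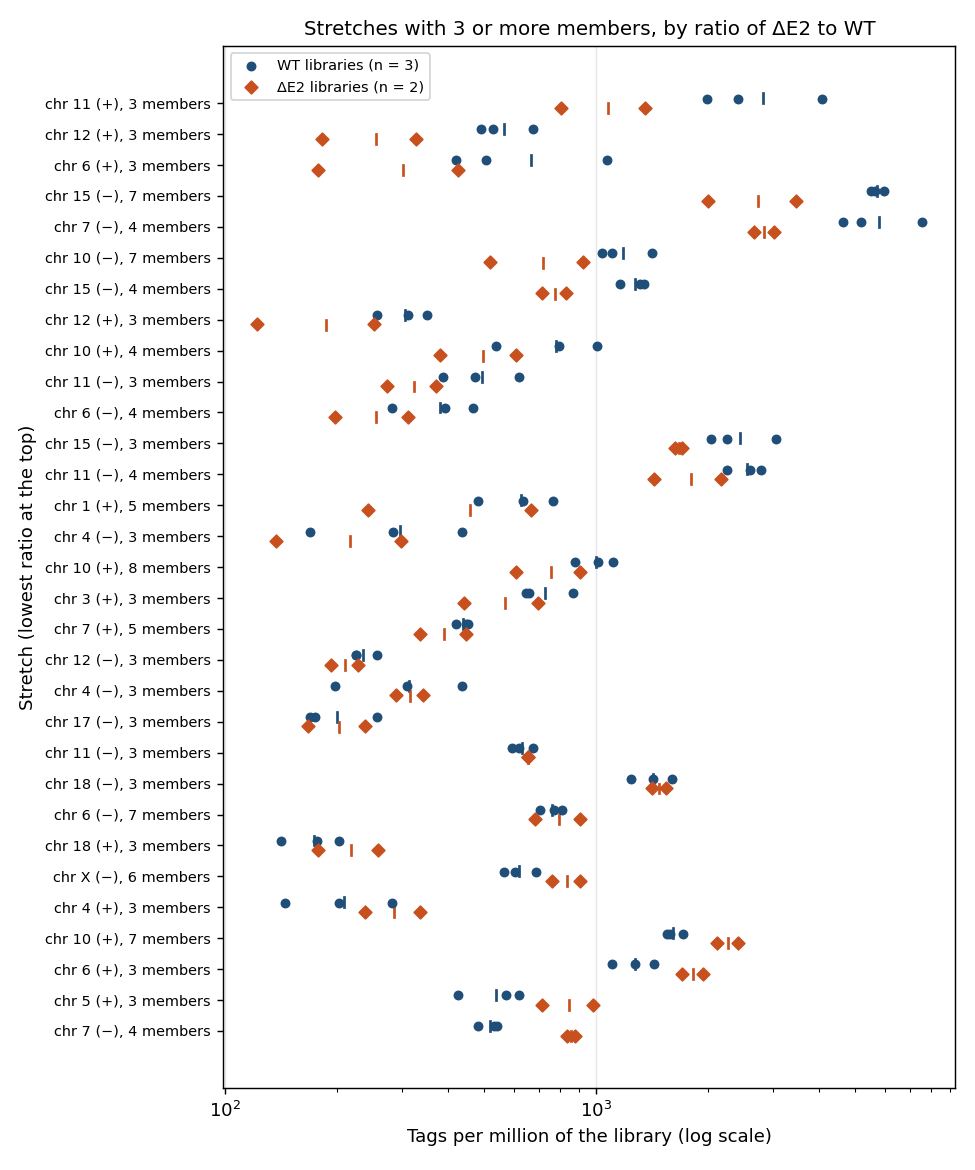
CPM of each library (x axis, log scale), summed over the members of each of the 31 stretches with 3 or more members, ordered by the ratio of ΔE2 to WT. Circles are the 3 WT libraries, diamonds the 2 ΔE2 libraries, and vertical ticks the means. The ratio runs from 0.382 on chromosome 11 at the top to 1.66 on chromosome 7 at the bottom.

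A group of members differed from the rest in shape. Members were 90 nt wide at the median, but 28 of 469 (5.97%) were at most 40 nt wide, against 4.50% of clusters sparse in ΔE2 and 1.07% of those shared with C2C12. Of these 28, 19 were stacks of 20 to 31 nt made of tags averaging 20 to 24.4 nt, with 1 to 8 distinct tag positions each. Such stacks numbered 6 among clusters sparse in ΔE2 and 0 among those shared with C2C12. This group was singled out after its values were seen. C2C12 tags were all 26 to 30 nt long, while forelimb tags ran from 19 to 38 nt and 22.7% were under 25 nt. RNA this short thus lay outside the lengths held by the C2C12 set, and the lack of C2C12 tags at 17 of the 19 stacks cannot be told apart from that limit. WT and ΔE2 groups overlapped at all 19 stacks, with a median ratio of 1.08. The requirement of 5 ΔE2 tags shapes these values too. At the 6 stacks sparse in ΔE2 the median ratio was 0.228 and the groups overlapped at 2. Over all 25 stacks among WT clusters the median ratio was 0.915 and the groups overlapped at 21. Of all 1379 WT clusters, 682 had overlapping groups.

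The largest stack was on the plus strand at chr7:136171189-136171216. It was 28 nt wide and had 28, 102 and 116 tags in WT and 127 and 77 in ΔE2, from 8 distinct positions in WT, so the tags differed chiefly in their barcodes. Its level was 1033 ± 305 CPM across WT (SD, n = 3) and 1530 ± 506 across ΔE2 (SD, n = 2). The groups overlapped in CPM, while edgeR with TMM scaling called its cluster higher in ΔE2, at a log2 fold of 1.05 ± 0.32 (SE). With all tags as library size the log2 fold was 0.55. Of all 276 tested clusters 15.9% were called higher under TMM scaling, and nothing is read from this call. The next lay at chr7:127162637-127162660 (minus strand), with 4, 11 and 25 WT tags and 23 and 8 ΔE2 tags. A stack at chr11:31943598-31943617 (minus strand) had 19 WT tags, all at 1 position. The stacks were spread over 12 chromosomes. They were not compared with known microRNAs or transfer RNAs, because the tables used here are of another build.

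**Figure D5:**
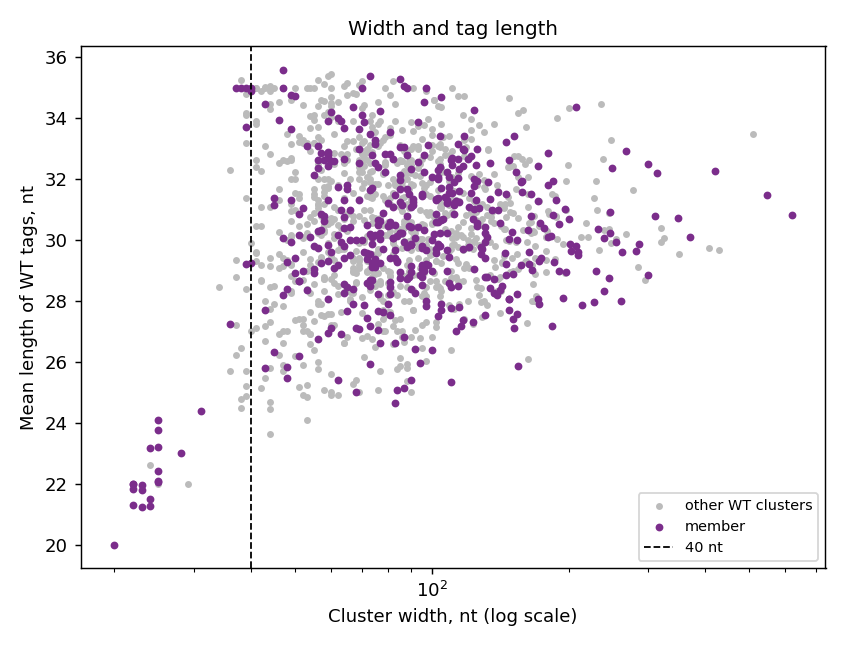
Mean length of the WT tags (y axis, nt) against cluster width (x axis, nt, log scale) for members and for all other WT clusters, with a dashed line at 40 nt. The members at the lower left, 20 to 31 nt wide with mean tag lengths of 20 to 24.4 nt, stand apart from the main cloud.

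By chromosome, the share of WT clusters that were members was highest on chromosomes 13 (18 of 39), 10 (43 of 95) and 11 (64 of 147). It was lowest on chromosomes 14 (5 of 30), 17 (11 of 61) and 5 (15 of 80). None of the 4 mitochondrial WT clusters was a member. The plus strand held 213 of 469 members (45.4%), close to 44.7% of all WT clusters. These shares rest partly on single stretches with many members, as on chromosome 10.

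The authors' deposited table of cassette exons gave a gene for 1 member. It lay on the minus strand at chr7:137342256-137342352, within an event of Fgfr2, a receptor for fibroblast growth factors that acts in limb outgrowth, which spans 137341933 to 137344686. The member had 2, 3 and 7 WT tags and 3 and 6 ΔE2 tags, overlapping groups with no C2C12 tag. In the authors' deposited table the change in inclusion (WT minus the knockout column) was 0.155 for this event, with an adjusted p of 0.0294 from Fisher's exact test. The counts in that table are group totals, so this p does not measure the spread between libraries.

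Clusters merged over all forelimb libraries were also tested for a genotype difference with edgeR, and 276 clusters passed its filter on low counts. In 123 of these lay 130 of the 469 members, and members in the same merged cluster share 1 fold and 1 call. The 15 members called higher in ΔE2 lay in 13 merged clusters and the 7 called lower in 7, where 15.9% of all 276 tested clusters were higher and 6.52% lower. The rule used this contrast, so nothing is read from the counts or from the call of any member, and the folds are a description. TMM scaling, which this test uses, moves the median log2 fold of all tested clusters by 0.50 relative to scaling by all tags, from -0.57 to -0.08. A ratio of 1 is therefore a positive log2 fold in the test. With all tags as library size the calls were 7 higher and 26 lower, where 22 and 58 of all 276 tested clusters were called. With the number of tags in tested clusters they were 7 higher and 19 lower, where 28 and 46 of all 276 were called. Signs of all 22 called members were the same under these scalings and under DESeq2 size factors. The log2 folds of the called members ran from 1.00 to 2.14 and from -2.29 to -0.93.

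Among the called members, those with the highest positive folds were small. At chr17:24665436-24665498 (plus strand), the log2 fold was 2.14 ± 0.50 (SE), from 4, 3 and 14 WT tags and 13 and 24 ΔE2 tags. At chr12:70411337-70411420 (plus strand) it was 2.11 ± 0.49 (SE), and at chr5:65986295-65986378 (plus strand) it was 2.09 ± 0.42 (SE). Among large members, the log2 fold was 1.77 ± 0.29 (SE) at chromosome 13 from 56390060, 1.55 ± 0.27 (SE) at chromosome 13 from 38290101 and 1.09 ± 0.27 (SE) at chromosome 10 from 18576304, in a merged cluster that also held the member from 18576678. In the other direction, the fold of greatest size among called members was -2.29 ± 0.52 (SE) at chromosome 9 from 43143209. The fold was -1.14 ± 0.33 (SE) at chromosome 15 from 101689208 and -0.93 ± 0.29 (SE) at chromosome 12 from 110698609. Other strong members with low ratios were not called. The member with the most WT tags, at chromosome 7 from 149844614, had a log2 fold of -0.67 ± 0.33 (SE). On chromosome 11 the folds were -0.76 ± 0.34 (SE) from 94814069 and -0.40 ± 0.31 (SE) from 99250054. The counts of calls moved with single WT libraries. Without WT replicate 1, 18 members were called higher and 13 lower, where all 254 tested clusters gave 56 and 34. Without WT replicate 2 the members gave 4 and 0, where all 245 gave 14 and 2. Without WT replicate 3 the members gave 7 and 1, where all 238 gave 17 and 5. With WT replicates 2 and 3 counted as 1 library, no member and no other of the 238 tested clusters was called in edgeR. There 17 members were higher and 9 lower at an unadjusted p under 0.05. Without WT replicate 2 the lower members at that unadjusted p numbered 10. Unadjusted counts over all tested clusters were not made, so nothing is read from these. DESeq2 on the filtered clusters of all libraries called 12 members higher and 2 lower, where all 276 gave 31 and 4.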

How the data were processed

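Per the submitters' processing notes, Novoalign placed the CLIP tags on mm9, version not given in the sources used here. Each line of the deposited CLIP files is 1 tag with a 5-base barcode. The score that the authors deposited per tag has no stated meaning and was left aside, and counts were made here from the lines. The authors combined the C2C12 libraries without a replicate label. RNA-seq reads were aligned with TopHat 1.3.2, per the submitters' processing notes, and the authors' table gives estimated counts per isoform as group totals, with a p-value per event, per the file headers. A header of that table names another muscleblind gene for the knockout.

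Members and lists were chosen with earlier results of these data known. Tags were merged at 1 nt of overlap. Tags of all forelimb libraries gave 191766 merged clusters, tested with edgeR 4.0.16 in R 4.3.3 (filterByExpr with a minimum count of 10, TMM scaling, quasi-likelihood fit, calls at a Benjamini-Hochberg p of at most 0.05), with 3 residual degrees of freedom and a common dispersion of 0.0435. DESeq2 1.42.0 was an alternative. Standard errors are the log2 fold divided by the root of the F statistic. The procedure was tested on simulated counts. Other steps used Python 3.11.15 with scipy 1.17.1, pandas 2.3.3, numpy 2.4.6 and, for figures, matplotlib 3.10.9. The named members are the 15 with the most WT tags, the 10 highest and 10 lowest ratios among those with at least 30 WT tags, the 5 widest, those in stretches of 3 or more and those in an event of the exon table; called members, the stacks, the members whose highest points lay over 100 nt apart and neighbours of named members were added after their values were seen. Replicates are labelled as biological, and the p-values computed here measure only the spread between libraries. The p-value from the authors' exon table does not measure that spread. Intervals and floors cover counting error only. No mm9 genome was used, so no sequence or motif is given.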

Additional observations from a re-analysis of the deposited data

How the results depend on the processing

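The number of members was 213 with a minimum of 10 ΔE2 tags, 240 with a minimum of 20 WT tags and 163 where any C2C12 tag dropped the cluster. It was 196 to 447 without 1 library, with 232 without WT replicate 3 and 196 without ΔE2 replicate 1, and 272 with ΔE2 replicate 1 as the single ΔE2 library, an alternative chosen after seeing the data. Members called higher in ΔE2, 15 in all, were 1 with DESeq2 on all clusters, 7 with either library size, 0 in edgeR without the low-count filter (12 at an unadjusted p under 0.05), 0 with WT replicates 2 and 3 as 1 library, and 4 to 18 without 1 library. Members called lower, 7 in all, were 0 (15 at an unadjusted p under 0.05) and 2 with DESeq2 on all and on filtered clusters, 19 and 26 with library size over tested clusters and over all tags, 3 without the filter, 17 with 6 libraries as labelled, 0 with WT replicates 2 and 3 as 1 library, and 0 to 13 without 1 library. With the replicate number as a block, 12 were lower and 13 higher. Over all tested clusters, the main fit called 44 higher and 18 lower of 276. DESeq2 on all clusters called 7 and 0 of 191766, and edgeR without the filter called 11 and 8 of 191766. With 6 libraries as labelled the calls were 47 and 38 of 212, and with the block 36 and 28 of 212. Nothing is read from the counts of members called. Deviations of same-numbered libraries from their group means had correlations of -0.32, -0.20 and -0.24. Those of differently numbered libraries ran from -0.19 to 0.27. Because ΔE2 replicates 2 and 3 shared most molecules, these values cannot decide whether the numbers pair the libraries. The difference in antisense tags per 100 sense tags, -0.00187, ran from -0.0129 to 0.00232 without 1 library and was reversed without WT replicate 2 (0.000369) and without WT replicate 3 (0.00232). So few antisense tags cannot settle its sign. The causes were not tested. Few tags per member limit every single value: 229 of 469 rest on 10 to 19 WT tags.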
